A study of Mus musculus with 18 samples.

Results

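Gene expression was measured in 2 sorted cell fractions of the mouse mammary gland, and the difference between these fractions was compared between mice with a mutant estrogen receptor and wild-type mice. The comparison used 12 of the series' 18 RNA sequencing libraries, 3 in each of the groups D542G N, D542G ML, WT N and WT ML. D542G mice carried an amino acid change in estrogen receptor alpha (ERα, encoded by Esr1), and WT mice carried the unchanged receptor. ML is the gate for mature luminal cells in flow cytometry, and N is a second gate. The labels name mature luminal cells as the tissue source of both gates. All 4 groups came from mice 6 months old that carried E2 and P4 (estradiol and progesterone) pellets. The mice then received the ERα antagonist giredestrant orally, 30 mg/kg a day over 4 days. No group lacked the hormones or the antagonist, so neither was compared with its absence. Zygosity, strain, the surface markers of the gates and whether a library pooled animals are not stated in the sources used here. P-values therefore measure the spread between libraries. The fit behind them used all 18 libraries, which adds 3 N and 3 ML libraries of a second Esr1 mutant, Y541S, at the same age and dose. Levels and the order of libraries are given for the 12 libraries alone unless Y541S is named.

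ERα is a transcription factor that is switched on by binding estradiol. In the mammary epithelium it is found mainly in hormone-sensing luminal cells, which signal to neighbouring luminal and basal cells through secreted factors. Substitutions near the end of its ligand-binding domain, the D542G site among them, are known to keep the receptor partly active without hormone, and antagonists such as giredestrant bind the same domain and lead to loss of the receptor. Basal cells of the gland are marked by Krt14, Krt5 and Trp63, and luminal cells by Krt8, Krt18 and Epcam.

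The quantity of interest was an interaction. For each gene the N over ML change in WT mice was subtracted from the N over ML change in D542G mice, on the log2 scale, so that a positive value means that the gene stood relatively higher in N cells of D542G than of WT mice. Levels are given as CPM, read counts scaled to the size of the library. They are not corrected for gene length, so levels of different genes are not compared. A gene was called when its p-value from edgeR's quasi-likelihood test stayed under 0.05 after Benjamini-Hochberg adjustment, which covered all 18298 genes tested. Values after ± are standard errors (SE).

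The 12 libraries held 34797778 to 49507144 gene counts each, with 18353 to 20807 genes at 1 count or more. Library WT N 3 stood apart from its group. Across 10000 genes it correlated with WT N 1 and WT N 2 at r = 0.744 and 0.733, against 0.965 between those libraries. It was closest to WT ML 3 (0.872) and D542G ML 2 (0.871), with WT ML 1 at 0.802. For the luminal keratin Krt18, WT N 3 had 4583 CPM and the other WT N libraries 195 and 264 CPM. For the basal keratin Krt14, WT N 3 had 2171 CPM and the others 13805 and 19469 CPM. Counts of calls are therefore given with and without this library, as are the interactions of named genes whose call it changes. WT ML 1 and 2 also differed from WT ML 3: basal and myoepithelial marker genes summed to 10408 and 7741 CPM in them and to 1672 CPM in WT ML 3, hair follicle keratins to 6242 and 1296 CPM against 1.72 CPM, and B and plasma cell markers to 1749 and 2928 CPM against 2.10 CPM. The same basal sums were 19285 to 21277 CPM for D542G N libraries and 1482 to 2030 CPM for D542G ML libraries. The part of these markers in the results was not tested.

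**Figure D1:**
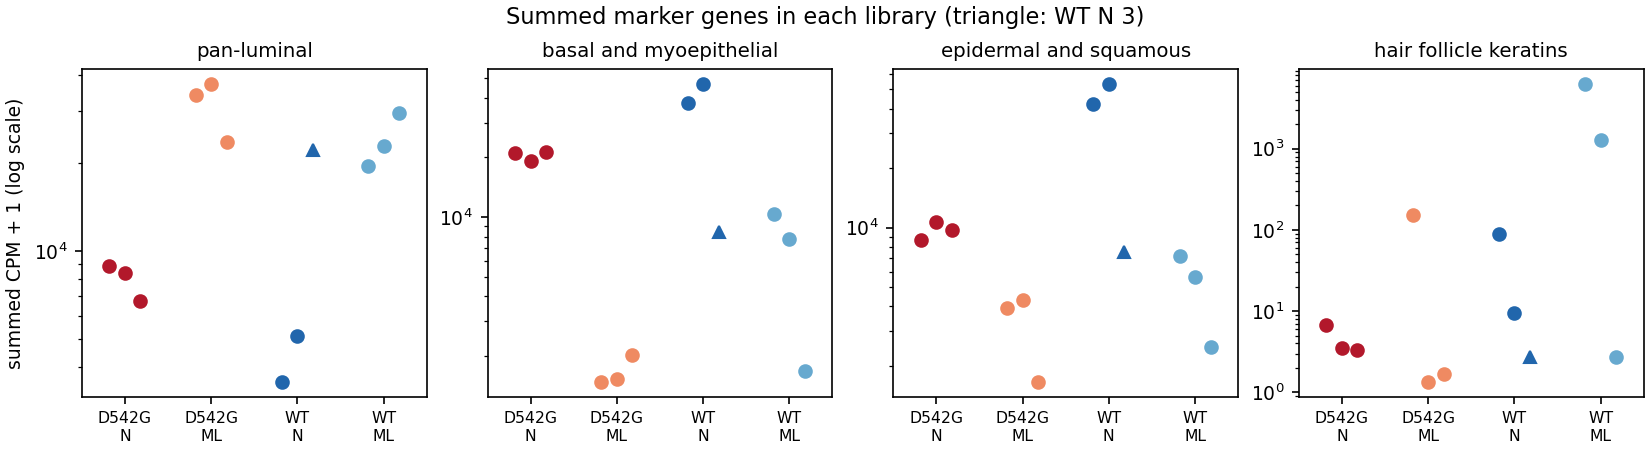
Summed CPM + 1 (log axis) of 4 lists of marker genes in each of the 12 libraries, with groups along the x axis and WT N 3 as a triangle. The 3 D542G N libraries lie close together in all 4 panels, while WT N 3 lies apart from WT N 1 and 2 in the luminal, basal and epidermal panels.

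Few genes were called as changing differently between the gates in D542G than in WT mice. The interaction called 20 of 18298 genes (0.109%), 19 of them higher (0.104%) and 1 lower (0.00547%) in D542G. The gene with the smallest adjusted p was Pde4b, which encodes a phosphodiesterase that breaks down cyclic AMP, followed by the growth factor response gene Ier5 and Sesn3, whose product restrains growth signalling through mTORC1. The other genes called higher were Cx3cl1, Aldh2, Fgf1, Fat1, Afap1l2, Tubb6, Prelp, Thsd4, Scara5, Rrad, Lamb1, Ltbp1, Rerg, Sncaip, 1700016C15Rik and Padi1, and the gene called lower was Chp1. All 20 remained called when WT N 3 was left out, with log2 fold changes that moved by at most 0.68 and adjusted p of 0.0236 or less. Without that library the interaction called 156 genes (0.853%), 124 higher (0.678%) and 32 lower (0.175%).

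Libraries of the same number in N and ML of a genotype deviated together from their group means, so same-numbered libraries were also fitted as pairs. The paired fit called 15 genes (0.082%), 14 higher (0.0765%) and 1 lower (0.00547%). Of the 20 genes, 8 were called there too (Cx3cl1, Fat1, Ier5, Sesn3, Thsd4, Pde4b, Scara5 and Ltbp1). In GRCm38, on the strand in brackets, the annotation places Cx3cl1 at chr8:94772009-94782427 (+), Fat1 at chr8:44935447-45052257 (+), Ier5 at chr1:155096361-155099636 (−), Sesn3 at chr9:14275067-14333101 (+). It places Thsd4 at chr9:59966931-60522046 (−), Pde4b at chr4:102087543-102607259 (+), Scara5 at chr14:65666403-65764826 (+) and Ltbp1 at chr17:75005568-75392512 (+). Counts were per gene and do not separate exons. The other 12 of the 20 had adjusted p of 0.0503 to 0.148 with pairs, although no log2 fold change of the 20 moved by more than 0.20. With pairs and without WT N 3, 167 genes were called (0.913%), 114 higher (0.623%) and 53 lower (0.29%), with 14 of the 20 among them. The 3 within-number differences of D542G all lay above or all below those of WT in 20 of the 20 genes, which is a description, since the genes were called on these libraries. Over all genes tested the share was 19.4% (10% with D542G above and 9.35% with D542G below). Other tools made more calls. The limma-voom fit with quality weights, which gave WT N 3 a weight of 0.180 and the other libraries 0.360 to 2.75, called 1254 genes (6.85%), 736 higher (4.02%) and 518 lower (2.83%). DESeq2 called 411 (2.25%), 253 higher (1.38%) and 158 lower (0.863%), and all 20 genes were among the calls of both. In edgeR's fit of the 12 libraries alone, without Y541S, 16 of the 20 were called. Cx3cl1 and Fat1 were among those that were not (adjusted p = 0.0734 and 0.0609).

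**Figure D2:**
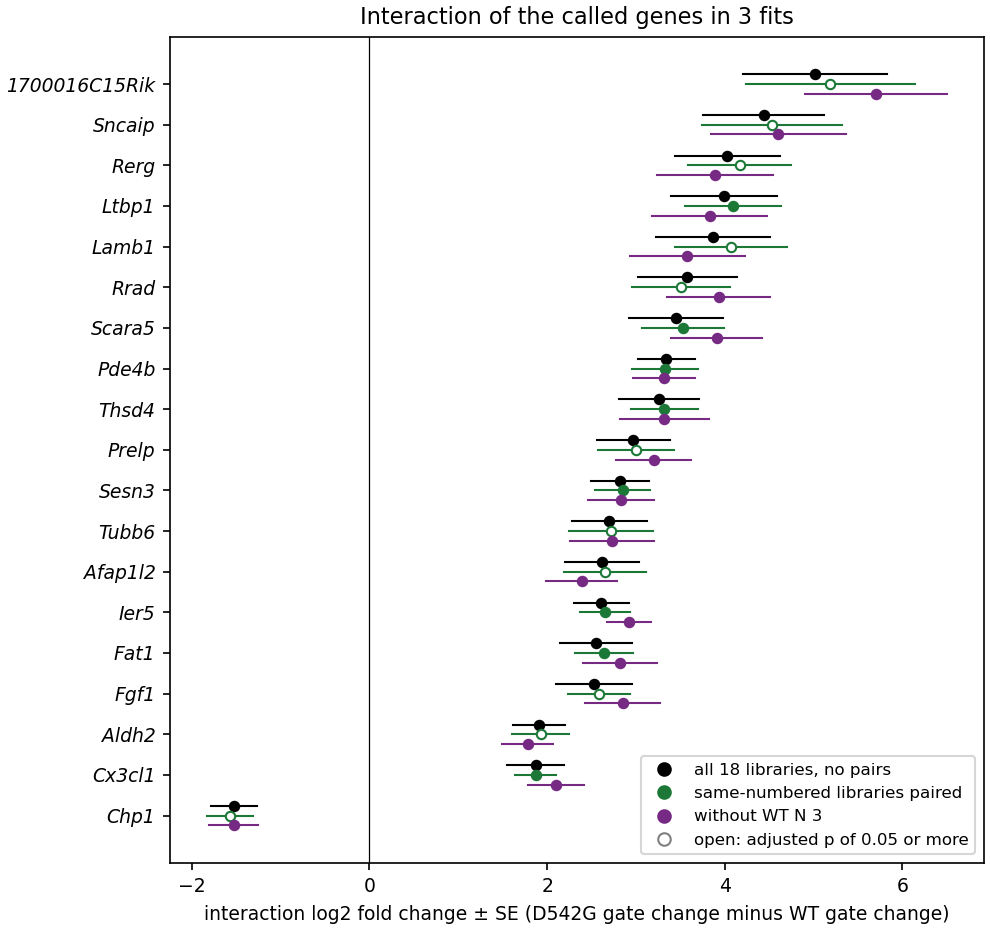
Interaction log2 fold change ± SE of 19 of the 20 called genes (rows) with all 18 libraries and no pairs, with same-numbered libraries paired, and without WT N 3. Filled points have an adjusted p under 0.05. The 3 estimates of a gene lie close together, and 12 of the 20 genes, Padi1 included, lose their call with pairs. Padi1 is left out of the plot because it had no count in WT N.

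Pde4b stood at 3447, 2730 and 3898 CPM in D542G N libraries and at 284, 339 and 332 CPM in D542G ML libraries. In WT it stood at 624, 650 and 612 CPM in N and at 597, 606 and 604 CPM in ML libraries. Among the WT and D542G libraries, the 3 D542G N libraries were highest and the 3 D542G ML libraries lowest. The WT libraries of both gates lay in a narrow band between them. The other mutant, Y541S, had 2731, 2703 and 1750 CPM in N and 449, 651 and 766 CPM in ML libraries. Whether the rise in N is particular to D542G was not tested. The gate change was 3.40 ± 0.24 in D542G (adjusted p = 1.12e-05) and 0.06 ± 0.22 in WT (adjusted p = 0.902), which gave an interaction of 3.34 ± 0.32 (adjusted p = 0.000609, and 0.0334 with pairs). The call was kept whichever of the 12 libraries was left out (adjusted p up to 0.0061).

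Ier5 stood at 1531, 1368 and 1347 CPM in D542G N libraries and at 575, 509 and 565 CPM in D542G ML libraries. In WT the order was turned round, with 205, 212 and 360 CPM in N and 559, 635 and 641 CPM in ML libraries. The ML libraries of both genotypes overlapped, and the N libraries lay above them in D542G and below them in WT. Both gate changes were called, at 1.36 ± 0.22 in D542G (adjusted p = 0.00172) and −1.24 ± 0.22 in WT (adjusted p = 0.00933). The interaction was 2.61 ± 0.31 (adjusted p = 0.00311, and 0.0334 with pairs), and 2.92 ± 0.25 without WT N 3.

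Sesn3 stood at 101, 81.1 and 114 CPM in D542G N libraries and at 17.9, 18.5 and 19.5 CPM in D542G ML libraries. The WT libraries had 23.6, 11.8 and 18.1 CPM in N and 27.3, 21.4 and 22.3 CPM in ML libraries. D542G N was higher than every other library, and the 2 WT groups overlapped. The interaction was 2.82 ± 0.33 (adjusted p = 0.00311, and 0.0334 with pairs). Pde4b, Ier5 and Sesn3 were the 3 genes whose call held whichever library was left out.

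**Figure D3:**
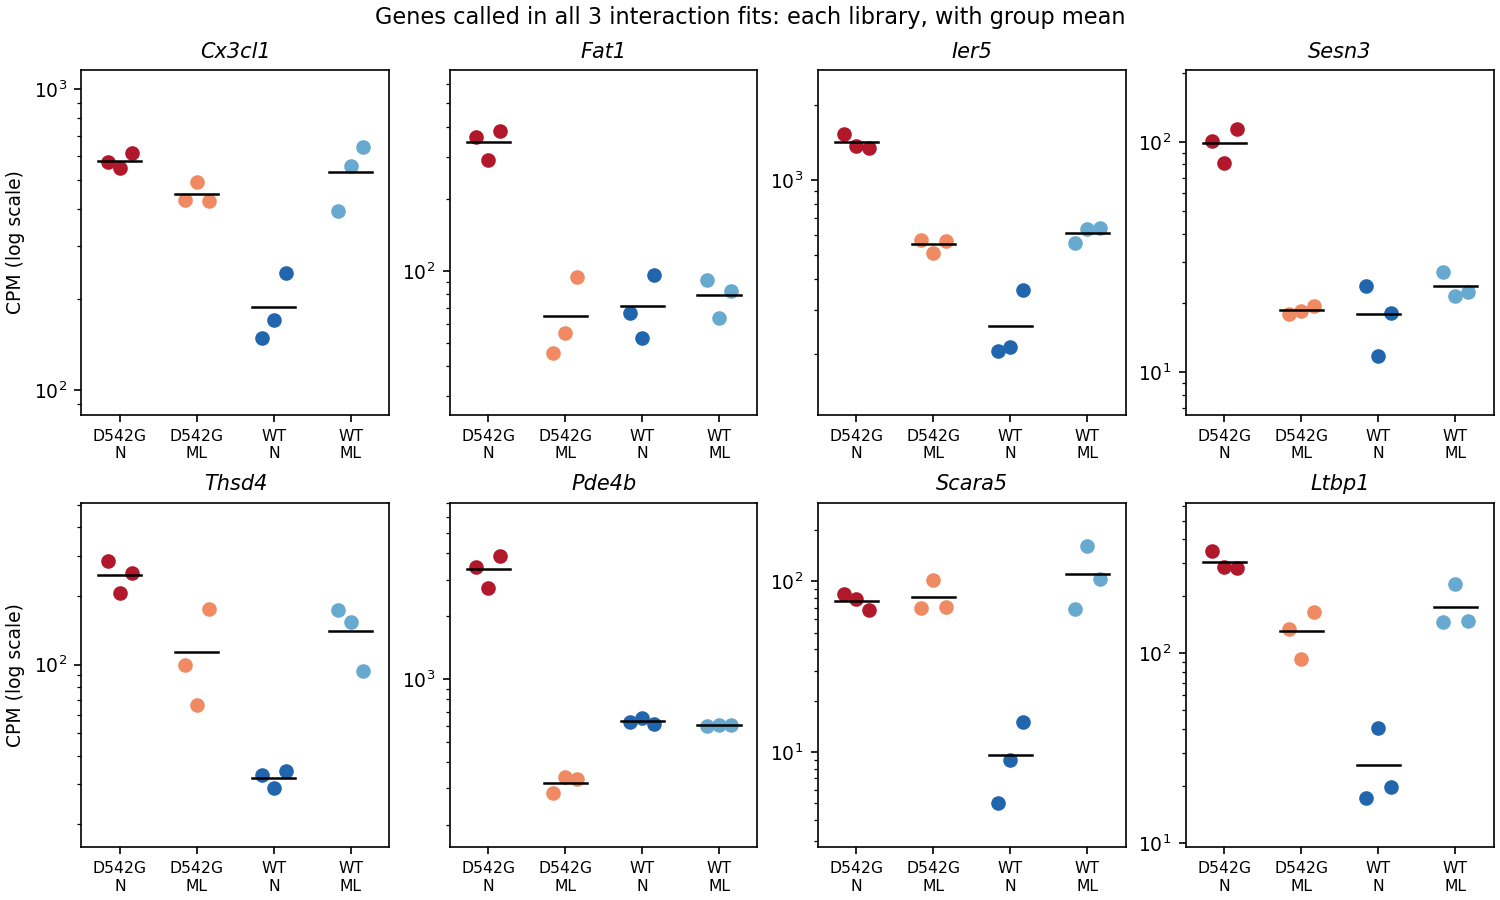
CPM (log axis) in each library of the 8 genes called with all libraries, with pairs and without WT N 3. Points are libraries in the order of their numbers and bars are group means, with D542G groups in red and orange and WT groups in dark and light blue. D542G N lies above WT N in all 8 genes, by rising above the ML groups (Pde4b, Fat1, Sesn3) or by the fall of WT N below them (Scara5, Cx3cl1), or both (Ier5, Thsd4, Ltbp1).

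The promoter windows of Ier5 and Sesn3 are shown because these genes kept their call whichever library was left out and have a single window each. Pde4b, which also kept its call, has 4 windows, with at most 1 motif match each, and is not shown. That of Cx3cl1 is shown because it is the only window counted among the called genes that holds a TATAAA. Each runs from 250 bases before to 50 after a RefSeq transcript start (GRCm38.p6) and is written 5′ to 3′ on the gene's own strand: Ier5 chr1:155099587-155099886 (− strand), Sesn3 chr9:14276051-14276350 (+ strand) and Cx3cl1 chr8:94771930-94772229 (+ strand). Capitals mark matches to the 6 motifs searched on both strands, here CCAAT (read as ATTGG on the other strand), GGGGCGGGG and TATAAA.
Ier5: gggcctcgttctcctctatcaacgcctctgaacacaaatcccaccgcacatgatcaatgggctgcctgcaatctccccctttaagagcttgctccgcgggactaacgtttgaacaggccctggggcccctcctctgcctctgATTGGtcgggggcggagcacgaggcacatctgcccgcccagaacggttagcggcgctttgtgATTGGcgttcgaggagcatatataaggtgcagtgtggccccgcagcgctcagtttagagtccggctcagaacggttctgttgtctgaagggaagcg
Sesn3: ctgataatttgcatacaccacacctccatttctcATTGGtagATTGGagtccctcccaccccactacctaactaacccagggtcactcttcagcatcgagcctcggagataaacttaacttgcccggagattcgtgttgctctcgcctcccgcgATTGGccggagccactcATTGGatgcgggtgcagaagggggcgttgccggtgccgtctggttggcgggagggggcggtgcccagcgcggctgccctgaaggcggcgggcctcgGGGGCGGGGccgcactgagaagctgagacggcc
Cx3cl1: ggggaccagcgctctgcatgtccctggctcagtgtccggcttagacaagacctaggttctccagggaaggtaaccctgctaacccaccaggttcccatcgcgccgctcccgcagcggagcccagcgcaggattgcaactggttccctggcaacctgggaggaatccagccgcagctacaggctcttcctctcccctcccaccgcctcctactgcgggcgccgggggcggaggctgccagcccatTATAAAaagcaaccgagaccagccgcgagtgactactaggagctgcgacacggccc
Of the called genes, 13 had such windows, 18 in all. The palindromic estrogen response element, GGTCA and TGACC with any 3 bases between them, was in 0 of the 18, and in 0.07% of all 32851 windows. CCAAT was in 11 of 18 windows (37.4% of all windows), the AP-1 motif TGANTCA in 1, that of Chp1 (7.81%), the cyclic AMP response element TGACGTCA in 1, that of Ltbp1 (1.79%), TATAAA in 1, that of Cx3cl1 (13.6%), and GGGGCGGGG in 2, those of Chp1 and Sesn3 (11.4%). No matches of different motifs overlapped in the 3 windows printed. Motif matches are a description of these letters and do not show binding.

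The 20 genes fell into groups by which gate change moved. The interaction is the difference of the gate changes and shares their libraries, so this is a description. In 10 genes the D542G change was called higher and the WT change was not called. In 4 genes, Cx3cl1, Scara5, Ltbp1 and Padi1, the WT change was called lower and the D542G change was not called. In 4 genes, Ier5, Prelp, Thsd4 and 1700016C15Rik, N was higher than ML in D542G and lower than ML in WT, both called. Aldh2 was called higher in N of both genotypes, and Chp1 was called lower in D542G. Over all genes tested, the gate change called 4.71% higher and 4.49% lower in D542G, and 2.14% higher and 1.39% lower in WT. For 16 of the 19 genes called higher the D542G N libraries lay above all 9 other libraries, and for 7 the WT N libraries lay below all 9 others. The genes were called on these libraries, so these counts are a description too, and the shares over all genes were not computed.

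**Figure D4:**
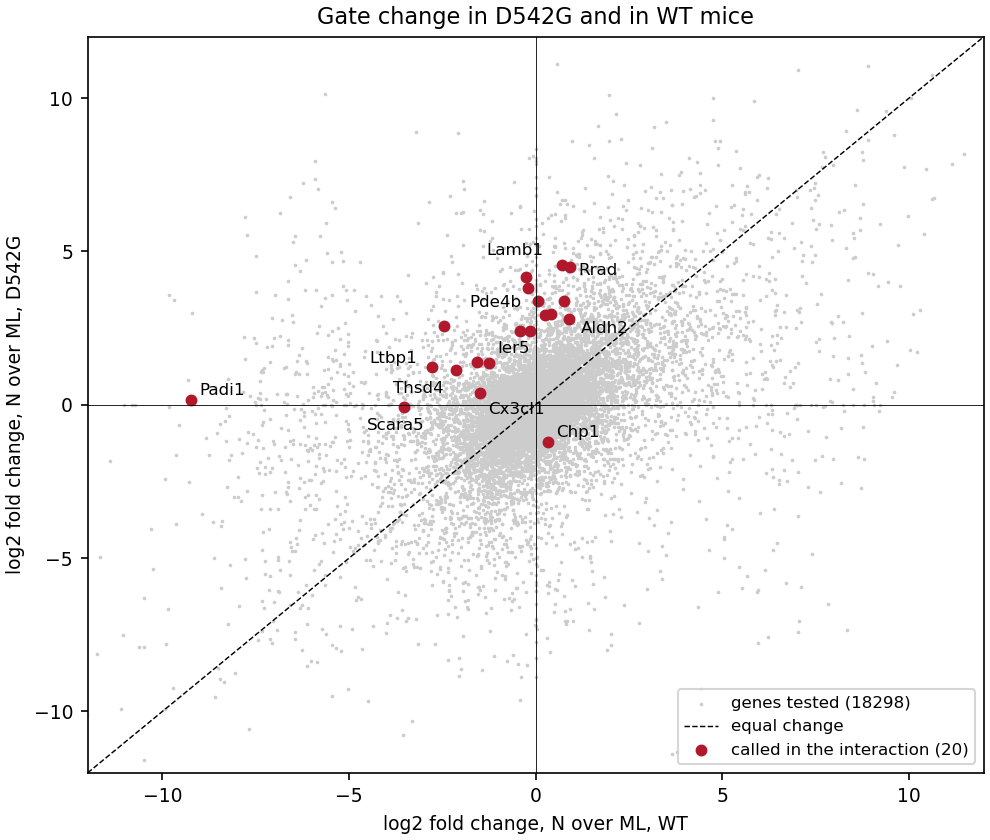
Log2 fold change of N over ML in WT mice (x axis) against that in D542G mice (y axis) for all 18298 genes tested, with the 20 called in the interaction in red. Genes on the dashed line changed equally. The 19 genes called higher lie above the line and Chp1 lies below it.

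Among the genes that rose in the D542G N gate, Fat1, an atypical cadherin of cell contacts, stood at 363, 291 and 382 CPM in D542G N and at 45.4, 55.2 and 94.1 CPM in D542G ML libraries. WT mice had 66.9, 52.5 and 96.1 CPM in N and 91.7, 63.7 and 82.3 CPM in ML libraries. The WT gates overlapped each other and D542G ML. The interaction was 2.55 ± 0.41 (adjusted p = 0.0225, and 0.0340 with pairs). Lamb1, a laminin chain of basement membranes, reached 400, 301 and 298 CPM in D542G N, against 9.40 to 18.8 CPM in D542G ML, and 26.3 to 80.1 CPM in WT N, against 26.9 to 33.5 CPM in WT ML. Its interaction was 3.87 ± 0.64 (adjusted p = 0.0277, and 0.0657 with pairs). The growth factor gene Fgf1 stood at 307 to 320 CPM in D542G N libraries and 37.4 to 43.1 CPM in D542G ML, and at 29.7 to 53 CPM in WT N and 25.6 to 33.3 CPM in WT ML (interaction 2.53 ± 0.43, adjusted p = 0.0307, and 0.0503 with pairs).

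Rerg, a Ras-related gene first described as induced by estrogen, stood at 128, 122 and 132 CPM in D542G N and at 6.07, 6.52 and 14.4 CPM in D542G ML libraries. Its WT levels were 22.9, 9.67 and 11.9 CPM in N and 19.1, 21.8 and 10.3 CPM in ML libraries. D542G N lay above every other library, and the WT gates overlapped. The interaction was 4.03 ± 0.59 (adjusted p = 0.0174, and 0.0503 with pairs). Rrad, which encodes a small GTPase that binds calcium channels, stood at 289 to 432 CPM in D542G N libraries and 15 to 18.2 CPM in D542G ML, and at 30 to 55.5 CPM in WT N and 10.4 to 26.3 CPM in WT ML (interaction 3.58 ± 0.56, adjusted p = 0.0198, and 0.0657 with pairs). Sncaip, whose product binds alpha-synuclein, stood at 179 to 198 CPM in D542G N libraries and at 6.13 to 16.7 CPM in all other libraries (interaction 4.44 ± 0.68, adjusted p = 0.0189, and 0.0902 with pairs).

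The tubulin gene Tubb6 stood at 535 to 734 CPM in D542G N libraries and 58.7 to 105 CPM in D542G ML, and at 134 to 195 CPM in WT N and 112 to 175 CPM in WT ML (interaction 2.70 ± 0.42, adjusted p = 0.0198, and 0.0902 with pairs). Afap1l2, an adaptor of Src family signalling, stood at 150 to 199 CPM in D542G N libraries and 15.3 to 17.2 CPM in D542G ML, and at 25 to 56.3 CPM in WT N and 18 to 30 CPM in WT ML (interaction 2.62 ± 0.42, adjusted p = 0.0216, and 0.0902 with pairs). Aldh2, the mitochondrial aldehyde dehydrogenase, was higher in N of both genotypes. It stood at 789 to 916 CPM in D542G N libraries and 103 to 135 CPM in D542G ML, and at 249 to 361 CPM in WT N and 144 to 195 CPM in WT ML. Its gate change was 2.80 ± 0.22 in D542G and 0.88 ± 0.21 in WT, an interaction of 1.91 ± 0.29 (adjusted p = 0.0189, and 0.0786 with pairs).

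The genes led by the WT change were lower in WT N than in the other groups. Scara5, a scavenger receptor that takes up ferritin, stood at 84.0, 78.6 and 68.2 CPM in D542G N and at 69.6, 102 and 70.8 CPM in D542G ML libraries. Libraries of WT mice held 5.01, 9.03 and 14.9 CPM in N and 69.0, 161 and 103 CPM in ML libraries. The WT N libraries lay below all others, and the remaining groups overlapped. The gate change was −0.07 ± 0.37 in D542G (adjusted p = 0.939) and −3.52 ± 0.40 in WT (adjusted p = 0.000707), an interaction of 3.45 ± 0.53 (adjusted p = 0.0189, and 0.0411 with pairs).

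Cx3cl1, the membrane-bound chemokine fractalkine, stood at 572, 548 and 612 CPM in D542G N and at 427, 490 and 424 CPM in D542G ML libraries. In WT it stood at 149, 171 and 244 CPM in N and at 394, 555 and 641 CPM in ML libraries. WT N was again below all others, with WT N 3 the nearest to them. The interaction was 1.87 ± 0.32 (adjusted p = 0.0347, and 0.0340 with pairs). Ltbp1, which holds latent TGF-β in the matrix, stood at 347, 286 and 282 CPM in D542G N and 134, 93.6 and 166 CPM in D542G ML libraries. The WT libraries had 17.2, 40.2 and 19.8 CPM in N and 146, 232 and 149 CPM in ML libraries. Ltbp1 was highest in D542G N and lowest in WT N, and the ML libraries of the genotypes overlapped. The interaction was 3.99 ± 0.60 (adjusted p = 0.0187, and 0.0435 with pairs).

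Thsd4, which takes part in fibrillin matrix assembly, stood at 285, 205 and 252 CPM in D542G N and at 99.3, 66.6 and 175 CPM in D542G ML libraries. WT mice had 32.8, 28.7 and 34.2 CPM in N and 174, 154 and 93.8 CPM in ML libraries. As with Ier5, the N libraries lay on opposite sides of ML in the 2 genotypes, at 1.12 ± 0.32 in D542G (adjusted p = 0.0391) and −2.14 ± 0.33 in WT (adjusted p = 0.00469). The interaction was 3.26 ± 0.45 (adjusted p = 0.0126, and 0.0340 with pairs). Thsd4 shares its span with 4 other genes in the annotation, so its counts are less certain than those of genes without overlap. Prelp, a matrix proteoglycan, stood at 238 to 243 CPM in D542G N libraries and 76.2 to 110 CPM in D542G ML, and at 36.6 to 58.7 CPM in WT N and 116 to 165 CPM in WT ML (interaction 2.97 ± 0.41, adjusted p = 0.0126, and 0.0544 with pairs).

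Prelp, 1700016C15Rik and Padi1 fell outside the rule by which genes were named and were added after their values were seen. 1700016C15Rik, whose function is not stated here, had low levels, at 9.47 to 15.4 CPM in D542G N libraries and 1.16 to 2.73 CPM in D542G ML, and at 0.414 to 1.43 CPM in WT N and 2.26 to 5.79 CPM in WT ML (interaction 5.02 ± 0.81, adjusted p = 0.0216, and 0.112 with pairs). Padi1, a peptidylarginine deiminase, had 3.24, 4.88 and 3.73 CPM in D542G N and 4.81, 2.88 and 2.83 CPM in D542G ML libraries. It had 0 counts in all 3 WT N libraries, against 1.88, 1.97 and 1.51 CPM in WT ML. With a floor of 3 counts per library (0.0757 CPM on average) it was at least 23.6-fold lower in WT N than in WT ML, which covers counting error only. The fitted interaction of 9.40 ± 1.27 (adjusted p = 0.0174, and 0.148 with pairs) depends on how zeros are handled and is no measure of size.

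Chp1, which encodes a calcium-binding partner of sodium-proton exchangers, was the gene called lower. It stood at 63.3, 59.5 and 51.9 CPM in D542G N and at 130, 137 and 133 CPM in D542G ML libraries. Its WT levels were 156, 142 and 150 CPM in N and 90.8, 114 and 151 CPM in ML libraries. D542G N lay below all other libraries, and the WT gates overlapped. The interaction was −1.53 ± 0.26 (adjusted p = 0.0324, and 0.0864 with pairs). Its call was kept with 2 of the 12 libraries left out in turn, WT N 3 and WT ML 3.

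The number of calls rested on single libraries. It was 3 without D542G ML 1, 5 without D542G ML 2, 6 without D542G N 1, 11 without WT N 2 and 13 without D542G N 3, against 156 without WT N 3 and 15 to 28 without any other of the 12. Cx3cl1, like Chp1, was called with 2 of the 12 left out in turn, and Fgf1 with 1 of them.

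Genes of hormone response and luminal identity were read next, since the receptor is the mutated protein. With WT N 3 in the fit the list of estrogen-responsive genes had 1 of 23 measured members called higher, Rerg, and 0 lower (0.109% of all genes called), with a median interaction of 0.32, against −0.06 over all genes. Of 19 hormone-sensing luminal genes 0 were called (median −0.85) and of 18 pan-luminal genes 0 were called (median −0.68). Without WT N 3, Rerg and Myb of the estrogen list, Esr1, Foxa1 and Batf of the hormone-sensing list, and Epcam and Cldn7 of the pan-luminal list were called higher (0.853% of all genes called), with medians of 1.12, 1.38 and 0.79, against 0.03 over all genes. With pairs and without WT N 3, Epcam and Cldn7 were not called (adjusted p = 0.0547 each). By limma-voom with all libraries, 7 of the 23 estrogen-responsive, 4 of the 19 hormone-sensing and 4 of the 18 pan-luminal genes were called higher and 2 pan-luminal genes lower (6.85% of all genes called). In bulk samples, fewer cells of a type and less RNA per cell cannot be told apart.

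Esr1, the mutated gene, stood at 313, 250 and 238 CPM in D542G N and at 161, 164 and 216 CPM in D542G ML libraries. Libraries of WT mice held 10.7, 14.9 and 307 CPM in N and 118, 187 and 455 CPM in ML libraries. D542G N lay within the range of WT ML, and WT N 1 and 2 lay far below all other libraries, while WT N 3 did not. Gene counts do not show which amino acid is encoded. The interaction was 1.76 ± 1.35 (adjusted p = 0.691), 3.19 ± 0.85 with pairs (adjusted p = 0.206) and 4.87 ± 0.89 without WT N 3 (adjusted p = 0.0254). The last value rests on 2 WT N libraries.

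Foxa1, a pioneer factor that opens chromatin for ERα, likewise had WT N 1 and 2 below all other libraries. It stood at 817, 652 and 823 CPM in D542G N and 803, 752 and 356 CPM in D542G ML libraries, and at 7.88, 14.7 and 573 CPM in WT N and 107, 348 and 619 CPM in WT ML libraries. The interaction was 1.11 ± 1.58 (adjusted p = 0.869), and 5.25 ± 1.03 without WT N 3 (adjusted p = 0.0317). Batf, a transcription factor of the AP-1 family, stood at 30.9 to 31.9 CPM in D542G N, 12.5 to 26 CPM in D542G ML, 3.25, 3.31 and 50 CPM in WT N and 19.4 to 43.7 CPM in WT ML libraries. Its interaction was 1.48 ± 1.16 (adjusted p = 0.696), and 4.01 ± 0.73 without WT N 3 (adjusted p = 0.0242).

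Myb, a transcription factor gene that estrogen induces, rose in N of D542G mice. It stood at 133, 174 and 119 CPM in D542G N and at 8.25, 6.24 and 14.3 CPM in D542G ML libraries. In WT it stood at 3.70, 2.92 and 25.4 CPM in N and at 7.79, 7.01 and 8.92 CPM in ML libraries. All 3 D542G N libraries were above every other library, and the gate change within D542G was clear of their spread (3.89 ± 0.80, adjusted p = 0.00831). The interaction was 3.46 ± 1.04 (adjusted p = 0.250), 4.26 ± 0.87 with pairs (adjusted p = 0.145) and 5.14 ± 0.83 without WT N 3 (adjusted p = 0.0141). Nrip1, an estrogen-induced corepressor of ERα, stood at 771 to 1051 CPM in D542G N, 335 to 451 CPM in D542G ML, 346 to 377 CPM in WT N and 324 to 368 CPM in WT ML libraries. Its interaction of 1.15 ± 0.25 was not called in these fits (adjusted p = 0.118, 0.148 with pairs and 0.0647 without WT N 3). With all libraries it was called by limma-voom (adjusted p = 0.0115) and DESeq2 (adjusted p = 0.000665).

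Other direct targets and partners of the receptor gave no call in any of the 3 edgeR fits. Pgr, the progesterone receptor gene, stood at 19.4 to 27.1 CPM in D542G N, 8.81 to 29.8 CPM in D542G ML, 0.201, 1.94 and 24.4 CPM in WT N and 9.23 to 32.1 CPM in WT ML libraries (interaction 1.09 ± 1.46, adjusted p = 0.858, and 4.14 ± 1.14, adjusted p = 0.102, without WT N 3). Pgr was called by limma-voom with all libraries (4.54, adjusted p = 0.0278). Greb1, a direct ERα target, was higher in N than in ML of D542G mice (1.94 ± 0.47, adjusted p = 0.0202), at 6.36 to 10.5 against 1.52 to 2.49 CPM, with 1.99 to 6.86 CPM in WT N and 1.44 to 3.22 CPM in WT ML. Its interaction was 1.18 ± 0.65 (adjusted p = 0.538), and 1.90 ± 0.56 without WT N 3 (adjusted p = 0.121). Areg, an EGF family ligand that relays estrogen signals, had an interaction of 0.07 ± 0.86 (adjusted p of 1, and 0.54 ± 0.89 without WT N 3), and Ccnd1, the cyclin of early cell cycle, of −1.08 ± 0.53 (adjusted p = 0.487, and −0.58 ± 0.47 without WT N 3).

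Prlr and Cited1, which encode the prolactin receptor and an ERα coactivator, had interactions whose sign turned with WT N 3. Prlr stood at 94.2 to 151 CPM in D542G N libraries and 1206 to 1556 CPM in D542G ML, and at 91.7, 72.3 and 1216 CPM in WT N and 806 to 1879 CPM in WT ML libraries. The interaction was −1.86 ± 1.16 (adjusted p = 0.601), and 0.63 ± 0.69 without WT N 3 (adjusted p = 0.734). Cited1 gave −2.35 ± 1.56 (adjusted p = 0.629), and 1.16 ± 1.07 without WT N 3 (adjusted p = 0.667). Gata3, a luminal transcription factor, gave −0.85 ± 0.54 (adjusted p = 0.615), and −0.04 ± 0.35 without WT N 3 (adjusted p = 0.997).

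**Figure D5:**
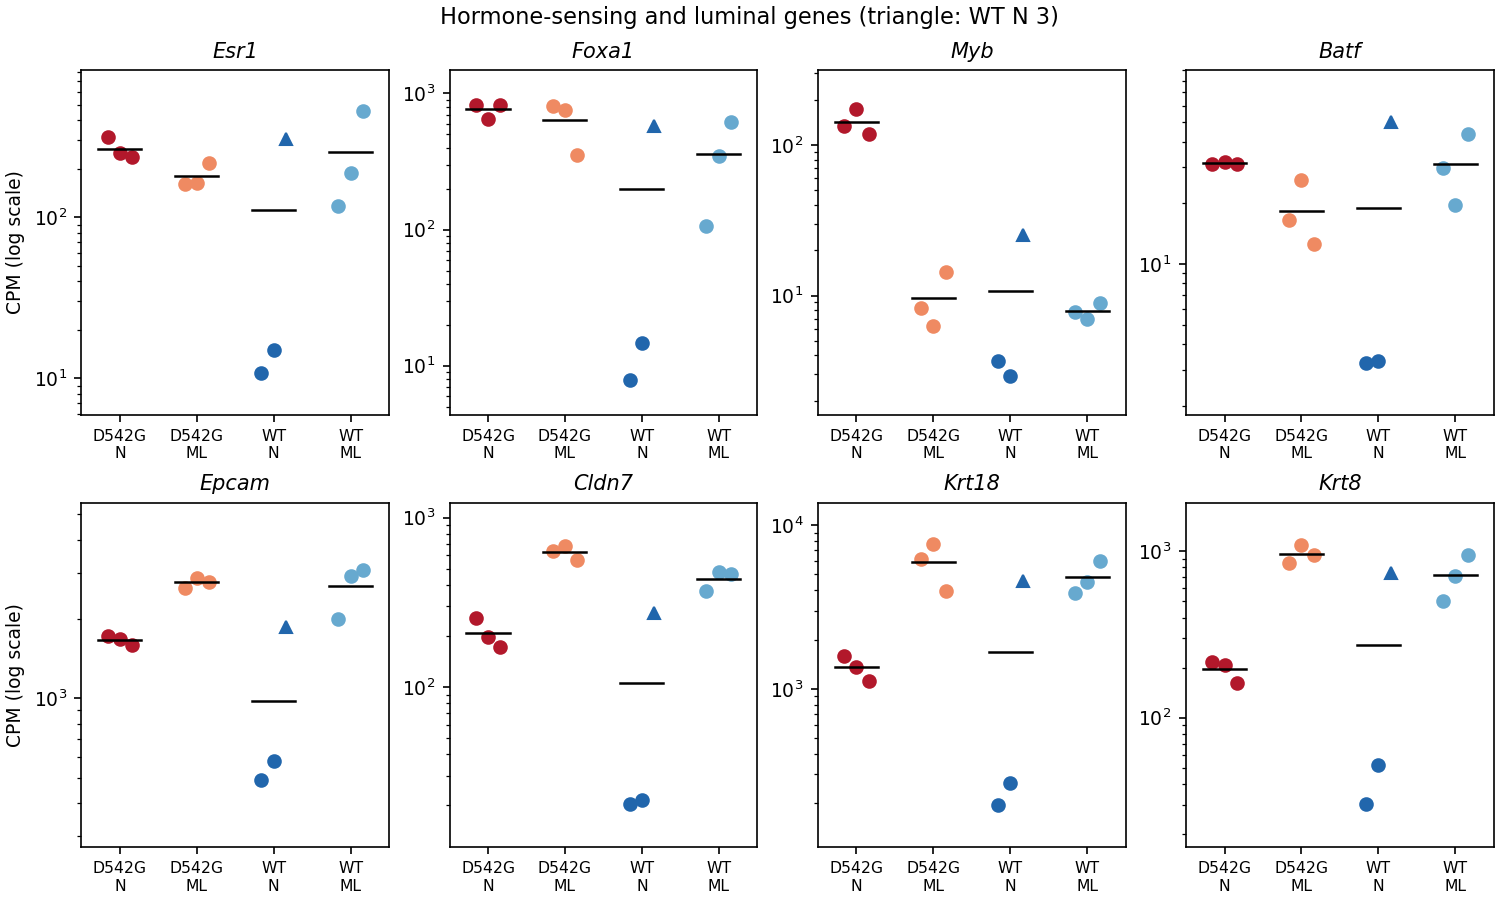
CPM (log axis) of 8 hormone-sensing and luminal genes in each library, with bars at group means and WT N 3 drawn as a triangle. WT N 1 and 2 lie below all other libraries in all 8 genes. WT N 3 lies near or among the WT ML libraries, except in Myb, where it lies above them.

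The luminal keratins and surface genes stood below their ML levels in all D542G N libraries, and lower still in WT N 1 and 2, although none of the 4 genes below was called between the gates in D542G. Krt18 stood at 1578, 1359 and 1119 CPM in D542G N and 6216, 7638 and 3967 CPM in D542G ML libraries. The WT libraries had 195, 264 and 4583 CPM in N and 3831, 4513 and 6065 CPM in ML libraries. The interaction was −0.62 ± 1.19 (adjusted p = 0.912), 0.99 ± 1.01 with pairs (adjusted p = 0.784) and 2.25 ± 0.61 without WT N 3 (adjusted p = 0.0944). Krt8 gave −0.90 ± 1.14 with all libraries (adjusted p = 0.847) and 1.84 ± 0.53 without WT N 3 (adjusted p = 0.118). Epcam, an epithelial adhesion molecule, stood at 1598 to 1718 CPM in D542G N, 2629 to 2877 CPM in D542G ML, 491, 579 and 1870 CPM in WT N and 1997 to 3081 CPM in WT ML libraries (interaction 0.71 ± 0.55, adjusted p = 0.694, and 1.59 ± 0.33, adjusted p = 0.0413, without WT N 3). Cldn7, a tight junction claudin, stood at 171 to 255 CPM in D542G N, 561 to 682 CPM in D542G ML, 20.5, 21.5 and 275 CPM in WT N and 369 to 477 CPM in WT ML libraries (interaction 0.45 ± 1.05, adjusted p = 0.932, and 2.78 ± 0.56, adjusted p = 0.0375, without WT N 3).

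Luminal progenitor genes had 0 of 16 measured members called with all libraries (0.109% of all genes called, median 0.26), 1 with pairs (Cxcl1, 0.082% of all genes) and 2 without WT N 3 (Cxcl1 and Lurap1l, 0.853% of all genes). Their defining genes Kit and Elf5 fell in N of both genotypes, with interactions of −1.24 ± 0.87 (adjusted p = 0.654) and −1.30 ± 1.26 (adjusted p = 0.773). Cxcl1, a neutrophil chemokine, stood at 76.4, 216 and 148 CPM in D542G N and at 38.4, 47.5 and 28.9 CPM in D542G ML libraries. WT mice had 60.3, 68.2 and 57.1 CPM in N and 260, 356 and 260 CPM in ML libraries. The gates thus stood in opposite order in the 2 genotypes, and the interaction was 4.18 ± 0.75 (adjusted p = 0.0513), 4.08 ± 0.38 with pairs (adjusted p = 0.0332) and 4.12 ± 0.85 without WT N 3 (adjusted p = 0.0405). Milk genes had 0 of 17 called, with a median of −1.64.

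Of 20 basal and myoepithelial genes, 10 rose in the N gate of D542G (4.71% of all genes tested) and 7 in that of WT (2.14%), and none of the 20 was called in the interaction with all libraries (median 0.13). Krt14 stood at 12144, 9916 and 12005 CPM in D542G N and at 50.1, 71.4 and 113 CPM in D542G ML libraries. Its WT levels were 13805, 19469 and 2171 CPM in N and 3864, 2926 and 94.6 CPM in ML libraries. WT ML 1 and 2 thus held more Krt14 than WT N 3, and the interaction was 4.82 ± 1.55 (adjusted p = 0.291, and 0.165 with pairs). It was called with pairs and without WT N 3 (4.97, adjusted p = 0.0495) and by DESeq2 (adjusted p = 0.0231). Krt5 gave 3.05 ± 1.88 (adjusted p = 0.597), Trp63, the regulator of basal identity, 2.05 ± 1.8 (adjusted p = 0.742) and the smooth muscle actin Acta2 −1.33 ± 0.90 (adjusted p = 0.633). Without WT N 3 these were 2.56 ± 1.96, 1.53 ± 1.83 and −0.31 ± 0.79, with none called.

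Of 22 measured epidermal and squamous genes 0 were called in the interaction with all libraries (0.109% of all genes called) and without WT N 3 (0.853%), and 1 with pairs, Krt16 (0.082%). With pairs and without WT N 3, 3 were called higher, Krt16, Krt6a and Krt6b (adjusted p = 0.0264, 0.0327 and 0.0471). That fit called 0.623% of all genes higher. The sum over the list was 8687 to 10655 CPM for D542G N libraries and 1660 to 4286 CPM for D542G ML libraries. It was 42289, 53121 and 7547 CPM for WT N and 2495 to 7219 CPM for WT ML. The part of these sums in the interaction was not tested. Krt16, a keratin of activated epidermis, stood at 79.2 to 92.2 CPM in D542G N libraries and 1.52 to 2.62 CPM in D542G ML. In WT pair by pair it stood at 68.7 against 52.3, 106 against 70.0 and 4.99 against 2.72 CPM in N against ML, so that N stood above ML in every pair while the level varied with the library number. The interaction was 4.91 ± 1.97 (adjusted p = 0.384), and 4.84 ± 0.57 with pairs (adjusted p = 0.0340). Krt6a stood at 1424 to 1940 CPM in D542G N libraries and at 33.9 to 441 CPM in the other 9 libraries (interaction 5.18 ± 1.17, adjusted p = 0.127, and 0.0941 with pairs). Krt1 and Krt10, keratins of differentiating epidermis, stood at 5.84 to 198 CPM and 10.2 to 386 CPM in D542G N, and at 120 to 3397 CPM and 257 to 4865 CPM in WT N. Their interactions were −3.48 ± 3.29 (adjusted p = 0.768) and −2.43 ± 3.08 (adjusted p = 0.847).

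Among signalling lists, calls by edgeR were few, beside 0.109% of all genes called with all libraries and 0.853% without WT N 3. Of 20 immediate early genes 1 was called, Ier5 (median 0.58). Of 21 TGF-β and BMP genes 1 was called, Ltbp1 (median 0.78), and without WT N 3 also Smad6, an inhibitor of BMP signalling (2.15 ± 0.56, adjusted p = 0.181, and 2.82 ± 0.46, adjusted p = 0.0153, without WT N 3). Tgfb2, a ligand of the pathway, fell in N of WT (−1.73 ± 0.39, adjusted p = 0.0255), with an interaction of 2.35 ± 0.54 (adjusted p = 0.128, 0.0692 with pairs, and 0.0320 with pairs and without WT N 3). Of 16 Notch genes 0 were called (median 0.37), and without WT N 3 Hes6, a HES family gene, was (2.53 ± 0.36, adjusted p = 0.00861). Of 22 Wnt genes 0 were called (median 0.01). The ligand gene Wnt11 stood at 135 to 175 CPM in D542G N, 12.6 to 16.2 CPM in D542G ML, 36.3 to 64.8 CPM in WT N and 13.7 to 89.5 CPM in WT ML (interaction 3.34 ± 0.86, adjusted p = 0.173). Of 15 ErbB receptor and ligand genes 0 were called (median 0.75), and the same held for 16 progesterone-responsive paracrine genes (median −0.17). One of the latter, Lif, fell in N of WT (−2.85 ± 0.46, adjusted p = 0.00646) and had an interaction of 2.61 ± 0.62 (adjusted p = 0.139, and 0.0336 with pairs and without WT N 3). With all libraries limma-voom called more of these genes higher (4.02% of all genes), and none lower. They were 4 TGF-β and BMP, 2 immediate early, 1 Notch, 2 Wnt, 2 ErbB and 2 progesterone-responsive genes.

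Inflammatory and NF-κB genes summed to between 11279 and 13748 CPM in D542G N libraries and 2170 and 2711 CPM in D542G ML. The sums were 3282 to 5795 CPM for WT N and 4052, 5150 and 3667 CPM for WT ML, so D542G N lay above all other libraries. Of 19 measured members 0 were called in the interaction (0.109% of all genes called, median 0.46), 1 with pairs (Cxcl1, 0.082% of all genes) and 2 without WT N 3 (Cxcl1 and Icam1, 0.853% of all genes). With all libraries limma-voom called 4 of them higher (4.02% of all genes) and 0 lower. Icam1, an adhesion molecule for leukocytes, averaged 1969 ± 247 CPM in D542G N and 111 ± 11.6 CPM in D542G ML, and 459 ± 131 CPM in WT N and 118 ± 33.6 CPM in WT ML (SD, n = 3 each). Icam1 rose in N of both genotypes, by 4.15 ± 0.34 in D542G (adjusted p = 2.9e-05) and by 1.96 ± 0.31 in WT (adjusted p = 0.00616). The difference was 2.19 ± 0.43 (adjusted p = 0.0811), and 1.97 ± 0.42 without WT N 3 (adjusted p = 0.0466).

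In edgeR's fits with all libraries, no metabolic or proliferation list had a called member. The medians without pairs were −1.41 for 18 cholesterol synthesis genes, −0.75 for 18 fatty acid synthesis genes, −0.21 for 23 oxidative phosphorylation genes and −1.15 for 24 cell cycle genes. With all libraries limma-voom called 4 cholesterol synthesis, 3 fatty acid synthesis, 1 oxidative phosphorylation and 0 cell cycle genes lower (2.83% of all genes), and none higher. With pairs and without WT N 3, edgeR called 1 cholesterol and 1 fatty acid synthesis gene lower (0.29% of all genes). Sqle, an enzyme of sterol synthesis, stood at 8.94 to 36.5 CPM in D542G N, 160 to 218 CPM in D542G ML, 87 to 200 CPM in WT N and 103 to 209 CPM in WT ML libraries (interaction −2.89 ± 0.82, adjusted p = 0.237, and 0.0845 with pairs). Cdkn2c, an inhibitor of cyclin-dependent kinases, stood at 4 to 4.74 CPM in D542G N and at 12.2 to 23.9 CPM in the other WT and D542G libraries (interaction −2.22 ± 0.47, adjusted p = 0.106). Its Y541S levels were 7.32, 11.3 and 17.9 CPM in N and 26.3, 30.7 and 24.4 CPM in ML libraries. Among the WT and D542G libraries, D542G N lay lowest for both Sqle and Cdkn2c. In both the gate change within D542G was called (adjusted p = 0.00826 and 0.00156). In edgeR's fit with all libraries and no pairs, 33 of the 36 lists had no member called. Among them were those of stromal, vascular and immune cell types and the hair follicle keratins (0 of 13, median 4.30), whose sums are given above for WT ML 1 and 2.

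The paired fit called 7 genes that the fit without pairs did not. Plaur, the urokinase receptor gene, stood at 211, 223 and 228 CPM in D542G N libraries and 53.6 to 64.0 CPM in D542G ML, and at 30.3, 33.2 and 86.4 CPM in WT N and 54.4, 52.3 and 86.9 CPM in WT ML (interaction 2.25 ± 0.50, adjusted p = 0.125, and 2.38 ± 0.29, adjusted p = 0.0340, with pairs). Ndrg1, a gene of hypoxia and differentiation, stood at 421 to 488 CPM in D542G N libraries and 44.2 to 74.6 CPM in D542G ML, with 68.6 to 187 CPM in WT N and 73.9 to 135 CPM in WT ML (2.72 ± 0.57, adjusted p = 0.106, and 0.0340 with pairs). Kcnn4, a calcium-activated potassium channel gene, stood at 3.09 to 9.06 CPM in WT N and at 66.0 to 113 CPM in the other 9 WT and D542G libraries (4.21 ± 0.91, adjusted p = 0.118, and 0.0334 with pairs). Its Y541S levels were 19.9, 89.5 and 15.6 CPM in N and 93.6, 343 and 93.0 CPM in ML libraries. Hcar2, a receptor for hydroxybutyrate, stood at 425 to 488 CPM in D542G N libraries and at 36.6 to 130 CPM in the other WT and D542G libraries (2.60 ± 0.59, adjusted p = 0.128, and 0.0451 with pairs). Sectm1b was the gene called lower (−3.08 ± 0.96, adjusted p = 0.262, and 0.0340 with pairs), and the remaining genes were Cxcl1 and Krt16. Plaur, Ndrg1, Kcnn4, Hcar2 and Sectm1b were named after their values were seen.

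Without WT N 3 the 156 called genes again split by which gate change was called. Of the 124 called higher, 64 were called lower in N of WT and not called in D542G, 32 were called higher in N of D542G and not called in WT, 19 were called in opposite directions, 5 fell in both genotypes and 4 rose in both. Of the 32 called lower, 19 were called higher in N of WT and not called in D542G, 7 were called lower in D542G alone and 6 moved in opposite directions. Of the 156, 154 had the same sign with all libraries, and 84 were also called with pairs and without WT N 3.

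Some of these genes, named after their values were seen, show how they depend on that library. Cadps2, which primes vesicles for release, stood at 59.3 to 89.0 CPM in D542G N, 94.0 to 106 CPM in D542G ML, 6.99, 8.74 and 75.3 CPM in WT N and 73.4 to 124 CPM in WT ML (interaction 1.32 ± 0.88, adjusted p = 0.631, and 3.27 ± 0.36, adjusted p = 0.00186, without WT N 3). Mpped2 stood at 6.40 to 7.23 CPM in D542G N, 13.5 to 16.4 CPM in D542G ML, 0.453, 0.569 and 25.9 CPM in WT N and 18.4 to 24.1 CPM in WT ML (0.03 ± 1.38, adjusted p of 1, and 4.15 ± 0.50, adjusted p = 0.00423, without WT N 3). Alcam, a cell adhesion molecule, stood at 465 to 517 CPM in D542G N, 308 to 353 CPM in D542G ML, 97.0, 61.7 and 295 CPM in WT N and 276 to 339 CPM in WT ML (1.62 ± 0.57, adjusted p = 0.326, and 2.55 ± 0.32, adjusted p = 0.00557, without WT N 3). In each of them WT N 3 stood at a level near or above that of WT ML, and WT N 1 and 2 stood below all other libraries.

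Among the genes called lower without WT N 3, several stood high in WT N 1 and 2. Igfbp3, which binds insulin-like growth factors, stood at 45.1, 114 and 71.3 CPM in D542G N libraries and 17.3 to 96.9 CPM in D542G ML, and at 481, 968 and 110 CPM in WT N and 3.41 to 20.9 CPM in WT ML libraries. Its gate change in WT was called with all libraries (5.39 ± 0.92, adjusted p = 0.00893), and its interaction was −4.67 ± 1.14 (adjusted p = 0.145), and −5.15 ± 1.03 without WT N 3 (adjusted p = 0.0343). Ifngr1, a chain of the interferon-gamma receptor, stood at 108 to 139 CPM in D542G N, 86.2 to 106 CPM in D542G ML, 374, 517 and 77.9 CPM in WT N and 55.1 to 97.8 CPM in WT ML (−1.64 ± 0.63, adjusted p = 0.365, and −2.10 ± 0.33, adjusted p = 0.0121, without WT N 3). Slc31a2, Ndrg2 and Cyb5b gave −2.68 ± 0.44, −1.89 ± 0.31 and −1.98 ± 0.28 without WT N 3 (adjusted p = 0.0153, 0.0153 and 0.00861).

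More genes were called for the gate changes than for the interaction. The interaction is their difference and had a larger SE (for Pde4b 0.32, against 0.24 in D542G and 0.22 in WT). Numbers of calls therefore do not compare how common the changes are. N against ML called 1684 genes in D542G (9.2%), 862 higher and 822 lower, and 646 in WT (3.53%), 392 higher and 254 lower. The 2 comparisons share no library. In both, 329 genes were called in the same direction, which is 19.5% of the D542G calls and 50.9% of the WT calls, and 5 were called in opposite directions. Without WT N 3, WT had 3045 calls (16.6%), 1446 higher (7.9%) and 1599 lower (8.74%), and D542G had 2605, with 1216 in the same direction (46.7% of the D542G and 39.9% of the WT calls) and 25 in opposite directions. With pairs and without WT N 3, D542G had 2709 calls and WT 2504.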

How the data were processed

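Per the labels' protocols, cells were sorted from mammary glands, RNA was extracted with RNeasy Micro Plus and libraries were made with Nextera XT. The authors deposited whole-number counts of reads per gene for each library, with no normalization, on the build GRCm38 per the submitters' processing notes. RPKM values per gene, which the authors deposited beside the counts, were not used. The aligner, the counting tool, its annotation and its use of strand are not named in the labels, so counts of overlapping genes are less certain. Of 52636 gene IDs, 52489 (99.7%) matched GENCODE M21 gene names, and the other 147 held at most 0.00902% of a library's counts.

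Groups were taken from the labels. Counts were scaled by TMM (factors 0.850 to 1.10), filtered with filterByExpr (minimum count 10, minimum total 15) and fitted with edgeR 4.0.16 (R 4.3.3) as 6 group means over all 18 libraries, Y541S included, so that groups shared 1 estimate of spread (12 residual degrees of freedom, biological coefficient of variation 0.652). Interaction and gate changes were tested with the quasi-likelihood F-test and adjusted by the Benjamini-Hochberg procedure across 18298 genes. The SE is the size of the log2 fold change divided by the square root of F. The fit was also run on simulated counts. These had less spread than the libraries and none that stood apart, so that run does not vouch for the fit here.

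Within a genotype, N and ML libraries that share a number correlated in their deviations from the group means at 0.168 to 0.423 in 6 of 6 pairs, against −0.456 to 0.193 for different numbers, so they were also fitted as pairs. Deviations within a group cancel out, so these ranges are not independent. In WT, N 2 correlated with ML 1 at 0.193 and with ML 2 at 0.168. The pairing comes from this check, not from the labels. The paired fit has 6 residual degrees of freedom. No libraries agreed within sampling noise (chi-square per degree of freedom of 46.1 or more).

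Alternatives were the paired fit, leaving out each library, RLE scaling, no filter, a stricter filter (1 CPM in 3 libraries), the 12 libraries alone, limma 3.58.1 (voom with quality weights) and DESeq2 1.42.0. Named genes were the 8 highest and 8 lowest called changes with a mean log2 CPM of at least 3, the same among genes that kept their sign in 3 fits, up to 3 genes a list by p-value, and 20 hormone and lineage genes. The members, the lists and these rules were chosen with earlier results of these data known. Motifs were searched in promoter windows from RefSeq (GRCm38.p6), and called genes on chr18 were left out of the counts.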

Additional observations from a re-analysis of the deposited data

Results flagged for a closer look

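The 20 called genes are those whose gate change differed between D542G and WT mice by a test of the difference itself, the interaction term of edgeR's quasi-likelihood fit. Their interaction log2 fold changes, D542G over WT, were −1.53 for Chp1, 1.87 for Cx3cl1, 1.91 for Aldh2, 2.53 for Fgf1, 2.55 for Fat1, 2.61 for Ier5, 2.62 for Afap1l2, 2.70 for Tubb6, 2.82 for Sesn3 and 2.97 for Prelp. They were 3.26 for Thsd4, 3.34 for Pde4b, 3.45 for Scara5, 3.58 for Rrad, 3.87 for Lamb1, 3.99 for Ltbp1, 4.03 for Rerg, 4.44 for Sncaip and 5.02 for 1700016C15Rik. The fitted value of 9.40 for Padi1 depends on how its 0 counts in WT N are handled.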

How the results depend on the processing

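The interaction called 20 genes with all libraries, and 15 with the replicate block, that is, with same-numbered libraries paired. It called 167 with pairs and without WT N 3, 411 with DESeq2 and 1254 with limma-voom, and from 3 (without D542G ML 1) to 156 (without WT N 3) when each library was left out. RLE scaling gave 21 calls, no filter 19, the stricter filter 26 and the 12 libraries alone 29. Of the 20 genes, 16 were among those 29. Cx3cl1, Fat1, Chp1 and 1700016C15Rik were not (adjusted p = 0.0734, 0.0609, 0.0623 and 0.0515 in edgeR's fit). N against ML in D542G called 1684 genes, against 2709 with pairs and without WT N 3, 3186 with DESeq2, 5862 with limma-voom and 732 to 2605 with each library left out. N against ML in WT called 646, against 2504, 2076 and 5167 in the same alternatives and 183 to 3045 with each library left out. The cause was not tested.

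No called gene changed direction under any alternative. Among the uncalled genes whose interaction is given above, 8 changed sign. Other genes of the lists changed sign too, such as Mb, at −1.16 with all libraries and 1.67 without WT N 3. Krt18 (−0.62) gave 0.99 with pairs, 2.10 with pairs and without WT N 3, 1.91 with limma-voom and −1.17 to 2.25 with each library left out. Krt8 (−0.90) gave 0.56, 1.62, 1.78 and −1.45 to 1.84 in the same order. Cited1 (−2.35) gave 1.23 with pairs and without WT N 3, 1.17 with limma-voom and −2.92 to 1.16 with each library left out, and Prlr (−1.86) gave 0.23, 0.34 and −2.39 to 0.63. Acta2 (−1.33) gave 0.50 with limma-voom. With each library left out, Areg (0.07) gave −0.25 to 0.54, Cldn7 (0.45) −0.06 to 2.78 and Mpped2 (0.03) −0.56 to 4.15.

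Each group had 3 libraries of at least 34797778 counts, and the biological coefficient of variation was 0.652. In edgeR's fits without pairs, Esr1, Foxa1, Batf, Myb, Epcam and Cldn7 were called without WT N 3 and not with it. limma-voom called all 6 with WT N 3 and DESeq2 called Myb, while Epcam and Cldn7 were not called with pairs and without WT N 3. Without it, WT N is 2 libraries.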
